A study of Mus musculus with 12 samples.

Results

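Open chromatin of host regulatory T cells of the bone marrow (host pTreg) was compared with that of host conventional T cells (host Tconv) in 4 of the 12 ATAC-seq libraries of the series, 2 for each group. ATAC-seq uses a transposase to insert sequencing adapters where DNA is accessible, and each library was available as a list of peaks. Both groups came from Balb/c mice. In this experiment T cells with the 6.5TCR, a receptor for influenza hemagglutinin, had been transferred into Aire-HA hosts, and bone marrow T cells were sorted 14 days later. Both were sorted as CD3+CD4+ cells. Host pTreg were CD45.1+CD45.2+ and further CD25+CTLA4+Nrp1-, and host Tconv were CD45.1+CD45.2- and CD25-. The titles call the host Tconv wild type, and their library names carry "Aire-HCO", which the labels do not explain; no line is named for host pTreg. The labels give no age or sex, and they do not say whether the 2 libraries of a group came from separate animals, so every test below measures only the spread between libraries, which may be technical.

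Regulatory T cells restrain immune responses, and their identity rests on the transcription factor Foxp3 together with a program of receptors and cytokines. Those that arise outside the thymus are called peripheral (pTreg). In mice Nrp1 (neuropilin-1) is used as a surface mark of the thymus-derived kind, so the name pTreg here rests on the absence of that protein. Conventional CD4 T cells that have not met antigen keep a quiescence program with factors such as Tcf7, Lef1, Satb1, Bach2 and Foxp1. The bone marrow is known to hold a dense population of regulatory T cells near its stem cells.

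Several features run with the group and cannot be told apart from it. The library names carry the run code DR31 for host pTreg and BW13 for host Tconv, and a number of unstated meaning, 10000 or slightly less for host pTreg and 50000 for host Tconv. The CD45 alleles of the sort differ, and CD45 is encoded by Ptprc on chromosome 1. Peaks at the starts of 3 genes of chromosome Y were present in both host pTreg libraries and in neither host Tconv library.

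Regions were formed by merging all peaks of the 4 libraries that shared at least 1 bp, which gave 51167 regions, where merging all 12 libraries gave 76882. A host pTreg region had a peak in both host pTreg libraries and in neither host Tconv library, and a host Tconv region the reverse. Each region was assigned by its midpoint, to the gene it fell in or otherwise to the protein-coding gene whose end was closest, up to 50 kb away. Promoter windows show what the regions look like in sequence. The RefSeq table of the GRCm38.p6 build lists 32851 windows of 300 bases around gene starts, of which 134 windows of 126 genes overlapped a host pTreg region and 221 windows of 206 genes a host Tconv region. Among genes of the lists used below these were Il1rl1 and Meis1 in host pTreg, and Foxp1, Cd3d, Cd160 and Itgam in host Tconv. The windows of Il1rl1, which encodes the IL-33 receptor ST2 of tissue regulatory T cells, and of the quiescence factor gene Foxp1 and the T cell receptor chain gene Cd3d are printed because they carry a differing region at a start of a gene that the results turn on. Capitals mark the letters GGAAGT (ETS), TGTGGT (RUNX), TGANTCA (AP-1) or CTTTGA (TCF/LEF) on either strand.
Il1rl1, host pTreg, chr1:40429320-40429619, plus strand: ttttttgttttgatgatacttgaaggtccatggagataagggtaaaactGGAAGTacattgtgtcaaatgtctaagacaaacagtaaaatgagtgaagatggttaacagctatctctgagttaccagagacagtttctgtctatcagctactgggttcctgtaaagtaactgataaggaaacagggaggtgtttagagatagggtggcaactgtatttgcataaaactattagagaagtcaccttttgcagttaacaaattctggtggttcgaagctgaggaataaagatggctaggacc
Foxp1, host Tconv, chr6:99266466-99266765, minus strand: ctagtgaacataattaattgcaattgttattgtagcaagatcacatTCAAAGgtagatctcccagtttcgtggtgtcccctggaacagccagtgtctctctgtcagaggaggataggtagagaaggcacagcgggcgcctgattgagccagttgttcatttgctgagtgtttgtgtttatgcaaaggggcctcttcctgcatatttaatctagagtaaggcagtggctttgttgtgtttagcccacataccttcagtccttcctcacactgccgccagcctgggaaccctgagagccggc
Cd3d, host Tconv, chr9:44981536-44981835, plus strand: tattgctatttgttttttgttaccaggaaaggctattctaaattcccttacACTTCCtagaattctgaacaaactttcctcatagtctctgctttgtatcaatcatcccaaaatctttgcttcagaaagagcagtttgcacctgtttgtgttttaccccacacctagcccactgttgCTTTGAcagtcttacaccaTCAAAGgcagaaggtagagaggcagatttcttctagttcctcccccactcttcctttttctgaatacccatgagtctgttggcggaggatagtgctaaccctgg
The host pTreg region covered 291 of the 300 bases at Il1rl1. The host Tconv regions covered 276 bases at Foxp1 and all 300 at Cd3d. TCF/LEF letters were found once at Foxp1, at 2 places at Cd3d and not at Il1rl1, where a single ETS match was found. Over all windows of each set, AP-1 letters were in 13.4% (18 of 134) of host pTreg windows and 8.14% (18 of 221) of host Tconv windows, against 7.81% of all windows in the table. TCF/LEF letters were in 16.4% of host pTreg and 15.4% of host Tconv windows, against 5257 of all 32851 windows. ETS letters were in 23.9% and 15.4%, against 23.8% of all windows, and RUNX letters in 17.9% and 14.5%, against 16.8%. In windows that overlapped a region of all 4 libraries the shares were 4.18% (AP-1), 11.3% (TCF/LEF), 29.8% (ETS) and 12.1% (RUNX). Other letters were searched and are not given. A match describes these letters only. Windows of 1 gene can overlap each other, so they are not independent.

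Host pTreg libraries had 37934 and 32885 peaks, and host Tconv libraries 37050 and 44465 peaks. The mean was 35409.5 ± 3570.2 peaks in host pTreg and 40757.5 ± 5243 peaks in host Tconv (SD, n = 2 each), so the lists overlapped in length. The number of reads behind a list is unknown, and a missing peak does not show closed chromatin. Of the 51167 regions, 25772 had a peak in all 4 libraries. The Jaccard index, the number of shared regions divided by those with a peak in either library, was 0.798 between the host pTreg libraries and 0.769 between the host Tconv libraries. It was lower, 0.585 to 0.657, for the 4 pairs of a host pTreg with a host Tconv library.

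In all, 2862 regions (5.59%) were host pTreg regions and 5864 (11.5%) host Tconv regions, so host pTreg held 32.8% of the differing regions. With each list held to the same number of its widest peaks, as many as the shortest of the 12 lists holds, there were 3265 host pTreg regions (8.94%) and 3409 host Tconv regions (9.34%) among 36507, a host pTreg share of 48.9%. The excess of host Tconv regions was thus nearly absent at equal list length. The shortest peak kept there differed between lists, 287 and 220 bp in host pTreg and 270 and 387 bp in host Tconv. A peak width dropped from host Tconv replicate 2 could thus stay in host pTreg. With peaks of at least 300 bp in every list the host pTreg share was 32.1%. The part of list length was not tested. At equal list length the regions themselves changed too: 1605 host pTreg regions were in both sets, 56.1% of the set from all peaks and 49.2% of the set at equal length, and 2234 host Tconv regions, 38.1% and 65.5%. No test per region is given, since 2 libraries against 2 cannot reach a p below 1 in 3. Without host pTreg replicate 2 there were 5150 host pTreg regions, and without host Tconv replicate 2 there were 4770. Without host pTreg replicate 1 there were 8831 host Tconv regions, and without host Tconv replicate 1 there were 12012. Such counts go up by construction, since 1 library then stands for its group.

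**Figure D1:**
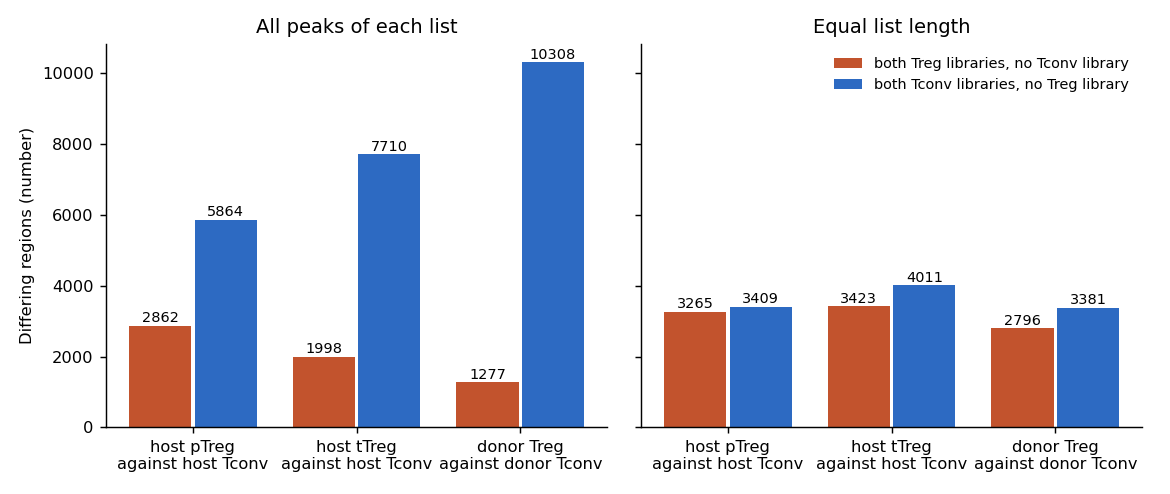
Number of regions (y axis) with a peak in both regulatory libraries and no conventional library (left bar of each pair) or the reverse (right bar), for 3 comparisons of 2 libraries against 2, with all peaks (left panel) and with lists of equal length (right panel). For host pTreg against host Tconv the bars stand at 2862 and 5864 with all peaks and at 3265 and 3409 at equal length.

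The same count for host tTreg, sorted like host pTreg but Nrp1+, against the same host Tconv libraries gave 1998 regions (3.91%) in host tTreg and 7710 (15.1%) in host Tconv. It shares the host Tconv libraries with the host pTreg comparison and is not independent of it. Donor Treg (CD25+LAP+) against donor Tconv (CD25-), both transferred 6.5TCR cells, shares no library with it and gave 1277 (2.47%) and 10308 (19.9%). At equal list length these were 3423 (9.18%) and 4011 (10.8%) for the host tTreg comparison, and 2796 (7.87%) and 3381 (9.52%) for the donor comparison.

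The differing regions were mostly away from gene ends. Of host pTreg regions 6.88% were no more than 1 kb from an end of a protein-coding gene, of host Tconv regions 5.64%, and of the regions in all 4 libraries 35.3%. Host pTreg regions had a median width of 359 bp and host Tconv regions of 390.5 bp, against 912 bp for regions in all 4 libraries. The widest host pTreg region lay in Ets1, the gene of a T cell ETS factor, at chr9:32743592-32746660, with 3069 and 2635 bp covered by peaks in the host pTreg libraries. It had a peak in both host tTreg and both iTreg libraries (regulatory T cells induced in culture) and in none of the 4 donor libraries. The next widest were in or near Fam169b, Dad1, Vps37b, a stretch of chromosome 10 with no gene within 50 kb, and Lrig1, with mean widths of 1559.5 to 1927 bp. The widest host Tconv region, at chr11:3140427-3148919 in Sfi1, was covered by 8493 and 8465 bp in host Tconv and had a peak in both donor Tconv libraries but in none of the 6 other regulatory libraries. Abcb9, Pitpnm1, Gnas, Galnt2 and Satb1 followed, with mean widths of 2030.0 to 3197.5 bp.

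Libraries outside the comparison show which cells share these regions, and they were not used to choose them. Host pTreg regions had a peak in 58.3% and 86.4% of cases in the host tTreg libraries, 55.8% and 63.7% in donor Treg, and 48.3% and 52.0% in iTreg, against 32.3% and 26.2% in donor Tconv. Host Tconv regions had one in 1.53% and 8.05% of cases in host tTreg, 11.4% and 16.6% in donor Treg, and 68.9% and 73.4% in iTreg, against 93.9% and 89.4% in donor Tconv. All 8 libraries carried 88.8% to 99.7% of the regions found in all 4 host libraries. The host Tconv regions were therefore present in nearly all cases in transferred conventional cells. They were present in at most 16.6% of cases in donor Treg and host tTreg, and in 68.9% and 73.4% in regulatory cells made in culture. Mean list lengths were 60782 peaks in iTreg, 45771.5 in donor Tconv, 33350.5 in donor Treg and 32111.5 in host tTreg (n = 2 each). Of the host tTreg libraries, the one with the longer list had the larger share of both sets. The part of list length in these shares was not tested.

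The share of host pTreg regions minus that of host Tconv regions gives 1 value for each library. It was 44.5 and 47.1 percentage points in donor Treg, 56.7 and 78.4 in host tTreg, and -20.6 and -21.4 in iTreg, against -61.7 and -63.2 in donor Tconv. All 6 other regulatory libraries lay above both donor Tconv libraries, but the iTreg libraries lay below 0. The difference between the means was 93.2 points (two-sided exact permutation test over libraries, 6 against 2, p = 0.0357, the smallest that 28 splits allow). The test takes libraries as exchangeable, but they are pairs from donor Treg, host tTreg, iTreg and donor Tconv. Means of these groups were 45.8, 67.6, -21.0 and -62.4 points (SD 1.86, 15.3, 0.589 and 1.08, n = 2 each). Libraries of 1 group are not independent, so the p does not measure the spread between kinds of regulatory cell. Without the iTreg libraries the difference was 119 points with an exact permutation p of 0.0667, the smallest that 15 splits allow. Without donor Treg replicate 1 it was 90.5 points and without replicate 2 it was 89.9 points, each with an exact permutation p of 0.0952. The donor Treg and donor Tconv libraries all carry the run code of host Tconv; the part of the run code in these values was not tested. The host tTreg values, the largest, come from libraries with the run code of host pTreg and its gate except for Nrp1.

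**Figure D2:**
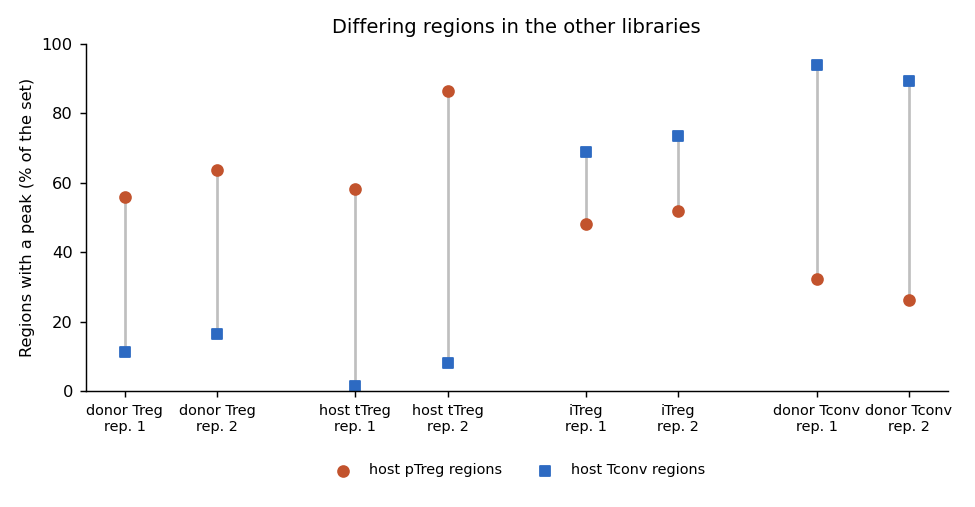
Percentage of the 2862 host pTreg regions (circles) and of the 5864 host Tconv regions (squares) that had a peak in each of the 8 other libraries (x axis). Circles lie above squares in the 4 donor Treg and host tTreg libraries and below them in the 4 iTreg and donor Tconv libraries.

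Taken region by region, 768 host pTreg regions (26.8%) had a peak in both donor Treg and neither donor Tconv library, and 111 (3.88%) in both donor Tconv and neither donor Treg library. Of host Tconv regions 3 (0.0512%) had the donor Treg pattern and 3993 (68.1%) the donor Tconv pattern. Over all 51784 regions of the donor comparison, 2.47% had the donor Treg pattern and 19.9% the donor Tconv pattern. At equal list length these shares were 7.87% and 9.52%. In 275 host pTreg regions (9.61%) all 6 other regulatory libraries and no donor Tconv library had a peak. In 955 host Tconv regions (16.3%) both donor Tconv libraries and no other regulatory library had one. Regions found in no other library were few, 114 of the host pTreg and 113 of the host Tconv regions. Shares over all regions are not given for the patterns across all other regulatory libraries or for regions in no other library.

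Host pTreg regions lay at the genes that define regulatory T cells. The number of regions with a peak at 8 marker genes, Foxp3, Il2ra, Ctla4, Ikzf2, Tnfrsf18, Lrrc32, Ikzf4 and Nrp1, was 77 and 77 in the host pTreg libraries and 43 and 55 in the host Tconv libraries, 20.7 and 24.2 against 11.9 and 12.4 for every 10000 regions of the library. All 8 genes had a peak in all 4 libraries, so none is absent from host Tconv. Ikzf2 alone had 26 and 23 of these regions in host pTreg and 6 and 12 in host Tconv. Foxp3 went the other way, with 1 and 1 in host pTreg and 2 and 2 in host Tconv. Nrp1 had 17 and 19 in host pTreg and 13 and 19 in host Tconv. Of the 8 genes, Il2ra, Ctla4 and Nrp1 encode sorted proteins. General T cell markers (Cd3e, Cd3d, Cd3g, Cd4, Cd5, Cd28 and Tcf7) had 34 and 32 regions in host pTreg, against 42 and 44 in host Tconv. For every 10000 regions of the library these were 9.12 and 10.1 against 11.7 and 9.93, so the groups overlapped. Cd79a, Cd79b and Ms4a1 of B cells, Csf1r, Lyz2 and Elane of myeloid cells, Hbb-bs and Hba-a1 of red cells and Klra8 of NK cells had no peak in any of the 4 libraries. Regions at the 7 myeloid marker genes numbered 10 and 8 in host pTreg and 14 and 17 in host Tconv, and those at the CD8 genes Cd8a and Cd8b1 1 and 1 in host pTreg and 5 and 5 in host Tconv. Other markers of these cells did have peaks. The 2 remaining of 6 B cell genes had 4 and 4 regions with a peak in host pTreg and 2 and 5 in host Tconv, the 3 remaining of 5 erythroid genes 4 and 4 in host pTreg and 3 and 3 in host Tconv, and NK genes 11 and 7 in host pTreg and 7 and 10 in host Tconv. The 6 stem and progenitor genes had 14 and 12 in host pTreg and 14 and 17 in host Tconv. The part of such cells in the results was not tested.

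Foxp3 itself differed in both directions. The gene body (chrX:7579676-7595243) holds or is crossed by 4 differing regions. The host pTreg region at chrX:7583411-7584768 was covered by 1358 and 1287 bp of peaks in host pTreg, and that at chrX:7594563-7595888, which reaches the neighbouring gene Ccdc22, by 1326 and 1020 bp. Host Tconv had no peak at either. The host Tconv regions, chrX:7586435-7586869 with 357 and 435 bp and chrX:7587485-7587871 with 247 and 387 bp, had no peak in host pTreg. Both host pTreg regions also had peaks in both donor Tconv libraries, which covered 391 and 431 bp at the first and 248 and 209 bp at the second. The donor Treg libraries had 1330 and 1358 bp at the first and 1326 and 1326 bp at the second. The midpoint of the first lies 4.41 kb inside the gene. Foxp3 is known for conserved elements in its introns, and whether a region here is one of them was not examined.

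Ikzf2, the gene of Helios, a zinc finger factor of regulatory T cells, had the most differing regions of any marker gene. Of its 29 regions, 26 and 23 had a peak in the host pTreg libraries, against 6 and 12 in the host Tconv libraries. It had 10 host pTreg regions and 1 host Tconv region, and 9 and 1 at equal list length. The background over all 14073 genes with a region was 9.5% of genes with more host pTreg regions and 20.1% with more host Tconv regions, or 13.2% and 13.6% at equal length. Of the 10 host pTreg regions, 1, at chr1:69691933-69692869, was covered by 880 and 890 bp in host pTreg and also had a peak in all 6 other regulatory libraries and in neither donor Tconv library. At chr1:69549975-69550906, with 672 and 912 bp, the 2 host tTreg libraries were the only others with a peak. The lone host Tconv region, chr1:69688801-69689378, lay 1.74 kb outside an end of the gene and had 376 and 578 bp in host Tconv and a peak in both donor Tconv libraries. Ikzf2 in the donor comparison had 6 donor Treg and 2 donor Tconv regions, and in the host tTreg comparison 8 and 1.

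Genes around TGF-beta went both ways, and their list is counted below. Itgb8, which encodes an integrin chain needed to release active TGF-beta, had 4 host pTreg regions of 7 and none in host Tconv. The widest, chr12:119204173-119205234, was covered by 1041 and 711 bp in host pTreg and had a peak in all 6 other regulatory libraries and in neither donor Tconv library. Lrrc32, whose product GARP holds latent TGF-beta at the surface, had 1 and 0. That region, chr7:98491665-98492470, was covered by 772 and 641 bp in host pTreg and had a peak in the donor Treg and host tTreg libraries, and in no iTreg or donor Tconv library. Tgfb1 had 1 in each direction, and Ltbp1, which encodes a latent TGF-beta binding protein, 0 and 1. Tgfbr3, a TGF-beta co-receptor gene, was the opposite, with 0 host pTreg and 10 host Tconv regions of 24.

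Il2ra, Ctla4 and Nrp1 encode proteins of the sort, so their regions are not independent of it. Il2ra (CD25) had 3 host pTreg and 0 host Tconv regions of 12, and Ctla4 3 and 1 of 16, or 5 and 0 at equal list length. Nrp1 had 3 and 2 of 22, although host pTreg were sorted as lacking the protein. Among the other receptor genes, Icos and Tigit had 2 and 0 each, Itgae (CD103), Pdcd1 (PD-1) and Tnfrsf18 (GITR) 1 and 0 each, Tnfrsf9 (4-1BB) 0 and 1, and Tnfrsf4 (OX40) and Lag3 none. Of factor genes, Ikzf4, Maf and Batf had 2 and 0 each, Prdm1 1 and 1, and Gata3 none. Tbx21, the Th1 factor gene, had 2 host pTreg regions and none in reverse, and both had a peak in both donor Tconv libraries.

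Genes of quiescent T cells held host Tconv regions. Foxp1, a forkhead factor of naive T cells, had 2 host pTreg and 19 host Tconv regions of 72, the largest net count in the host Tconv direction among genes whose sign held at equal list length. Its regions with a peak numbered 41 and 32 in host pTreg and 54 and 62 in host Tconv. All 19 had a peak in both donor Tconv libraries, and the widest, chr6:99265240-99266741, covered 938 and 1502 bp in host Tconv and lies at the promoter window printed above. Bach2, a repressor of effector genes, had 3 host pTreg and 10 host Tconv regions of 44. The host pTreg region chr4:32287886-32288704 was covered by 819 and 455 bp in host pTreg and had a peak in both donor Treg and both host tTreg libraries but in no iTreg or donor Tconv library. Satb1, a chromatin organiser, had 0 and 7 of 17, and the widest, chr17:51805120-51807658, covered 1521 and 2539 bp in host Tconv. Lef1 had 0 and 5 of 17. The Lef1 region chr3:131124531-131127022 was covered by 1228 and 2492 bp in host Tconv, and the donor Treg libraries still had 189 and 249 bp there. Tcf7 had 0 and 1, Ccr7 1 and 0, and Il7r none. At equal list length Foxp1 had 0 and 12, Bach2 2 and 12, Satb1 0 and 7, and Lef1 0 and 7. Zbtb16, the gene of the innate-like T cell factor PLZF, had 0 and 4, but 1 and 0 at equal length. Cxcr4, the receptor that holds cells in the bone marrow, had 0 and 2 and lies in the chromosome 1 stretch described below.

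**Figure D3:**
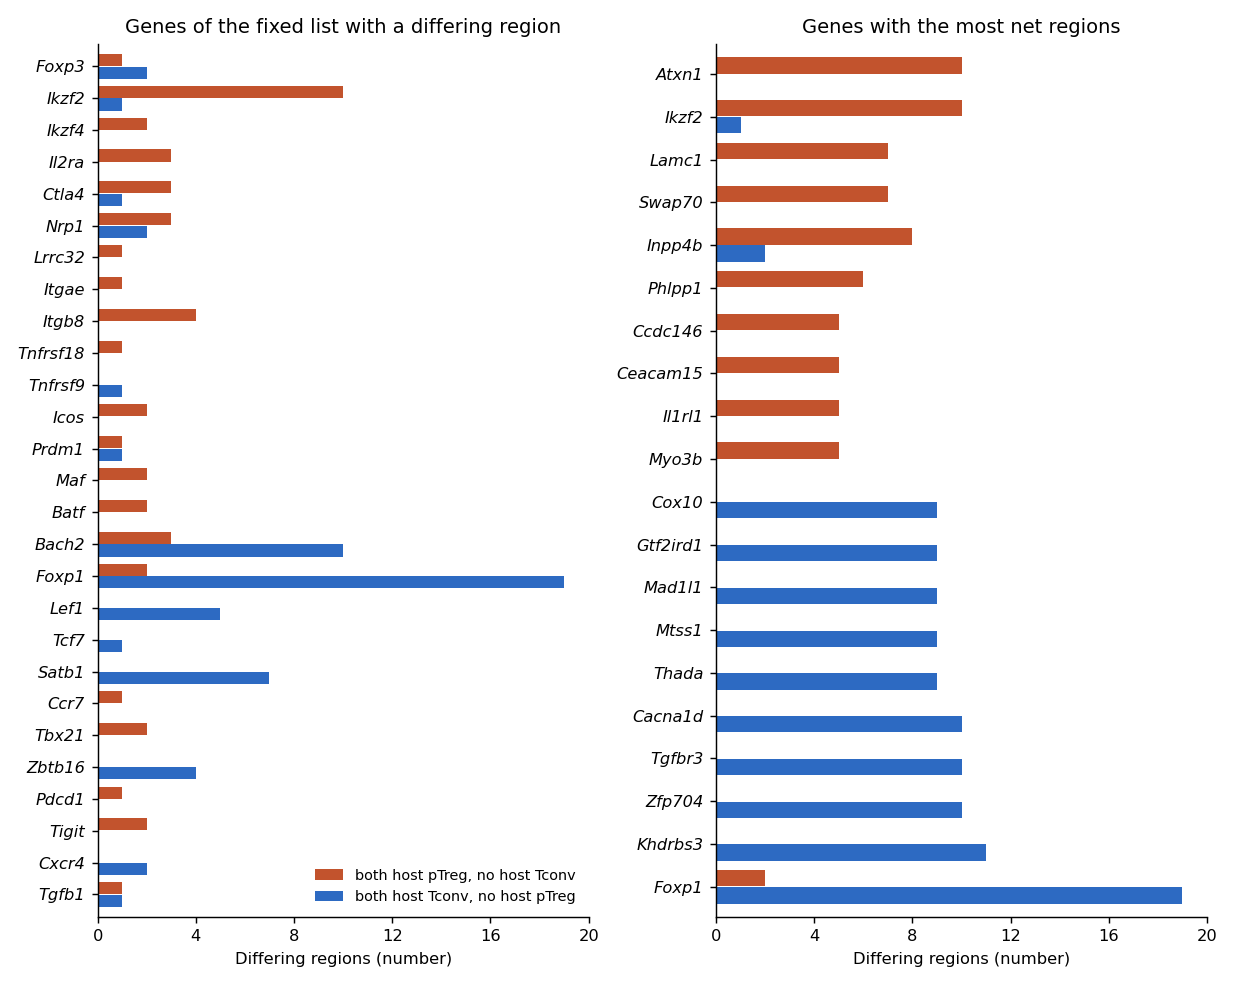
Number of host pTreg regions (upper bar of each gene) and host Tconv regions (lower bar) at the genes of the fixed list that had a differing region (left) and at the 10 genes with the most net regions in each direction (right). Ikzf2 and Atxn1 reach 10 in host pTreg, and Foxp1 reaches 19 in host Tconv.

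Outside the known program, the largest net counts in host pTreg after Atxn1 and Ikzf2 were at Lamc1 and Swap70 (7 and 0 each), Inpp4b (8 and 2), Phlpp1 (6 and 0) and Il1rl1, Ccdc146, Ceacam15 and Myo3b (5 and 0 each). With lists of equal length they were 7 and 0 at Atxn1 and Il1rl1, 6 and 0 at Lamc1 and Ccdc146, 3 and 0 at Swap70 and Phlpp1, 8 and 2 at Inpp4b, 4 and 0 at Ceacam15 and 3 and 1 at Myo3b. Without host Tconv replicate 1 the net was 3 at Inpp4b and at Phlpp1, against 6 with all libraries, and without host pTreg replicate 2 it was 12 at Inpp4b. Atxn1, the gene of the repressor ataxin-1, had 10 host pTreg and 0 host Tconv regions of 40, with a peak at 34 and 34 regions in host pTreg and 21 and 26 in host Tconv. Lamc1 encodes a laminin chain and lies in the chromosome 1 stretch. Swap70 acts in Rac and actin signalling, and Inpp4b and Phlpp1 encode phosphatases of the PI3K and Akt pathway. Ceacam15 had 6 and 5 regions with a peak in host pTreg and 0 and 0 in host Tconv. At chr7:16681327-16682068 near Ceacam15 the host pTreg libraries had 742 and 623 bp, and all 6 other regulatory libraries had a peak while the donor Tconv libraries had none. Of the 5 Il1rl1 regions, those at chr1:40425327-40425750 and chr1:40427201-40427651 had a peak in both donor Treg and both host tTreg libraries and in no iTreg or donor Tconv library. In the donor comparison the donor Treg and donor Tconv regions numbered 5 and 0 at Atxn1, 5 and 0 at Lamc1, 2 and 0 at Swap70, 4 and 3 at Inpp4b and 5 and 4 at Phlpp1. Host tTreg against the same host Tconv libraries gave 7 and 0 at Atxn1, 6 and 0 at Lamc1 and Swap70, and 7 and 2 at Inpp4b. That comparison gave 4 and 0 at Phlpp1, Ceacam15 and Myo3b, 4 and 1 at Il1rl1 and 2 and 0 at Ccdc146.

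After Foxp1, host Tconv led at Khdrbs3, the gene of an RNA-binding splicing regulator, with 0 host pTreg and 11 host Tconv regions. Of the 17 Khdrbs3 regions, 1 and 0 had a peak in host pTreg and 12 and 15 in host Tconv. All 11 had a peak in both donor Tconv libraries, and 5 had one in both iTreg libraries. Tgfbr3, Zfp704 and the calcium channel gene Cacna1d had 0 and 10 each, and Gtf2ird1, Mad1l1, Mtss1, Cox10 and Thada 0 and 9 each. At equal list length Thada had 0 and 2, and the others 0 to 2 host pTreg and 5 to 13 host Tconv regions.

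As groups, both regulatory lists leaned to host pTreg. The Treg core list of 20 genes had 39 host pTreg regions (21.3% of 183) and 12 host Tconv regions (6.56%), beside 5.59% and 11.5% of all regions. Of its genes 11 had more host pTreg regions, 3 more host Tconv regions and 6 equal numbers, with a median net of 1 per gene against 0 over all genes. Its regions with a peak numbered 150 and 147 in host pTreg and 95 and 117 in host Tconv. With the genes of the 3 sorted proteins left out, a step added after the values were seen, the list had 30 (22.6%) and 9 (6.77%) of 133. The list of effector and tissue Treg genes held 33 (18.0%) and 9 (4.92%) of 183, with 157 and 145 regions with a peak in host pTreg and 102 and 125 in host Tconv. At equal list length the counts were 35 and 7 for the core list and 40 and 3 for the effector list. The 2 lists share no gene.

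The naive and quiescence list leaned the other way, with 11 host pTreg regions (3.64% of 302) and 57 host Tconv regions (18.9%), and 9 and 62 at equal length. Of its 20 genes 1 had more host pTreg and 13 more host Tconv regions. Inhibitory receptors with Tox had 17 and 6 of 118, and Th2 genes 8 and 2 of 48, of which Il1rl1 gave 5 of the 8. Proximal T cell receptor signalling had 11 and 28 of 224, close to the background in both directions. Th17 genes had 15 and 13 of 86, with 4 of the 15 at Ahr, a ligand-sensing factor gene. TGF-beta genes had 19 and 23 of 150, and Ikaros and Runx genes 27 and 21 of 236, of which Ikzf2 gave 10 of the 27. The lists of IL-2 receptor and STAT5 (10 and 12 of 113), TNF receptors and NF-kappaB (15 and 18 of 150), TCR-induced genes (9 and 13 of 138), Th1 and cytotoxic genes (9 and 6 of 116), Tfh (6 and 9 of 74), homing (8 and 9 of 120), adenosine, metabolism and niche (6 and 5 of 79) and pan-T genes (9 and 14 of 146) had nets of 5 or fewer. Among lists of other cell types, CD8 T had 2 and 5 of 34, NK 1 and 0 of 25, B cell 0 and 1 of 13, plasma cell 2 and 2 of 27, myeloid 0 and 8 of 38, erythroid 1 and 0 of 8 and stem and progenitor 2 and 6 of 35.

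**Figure D4:**
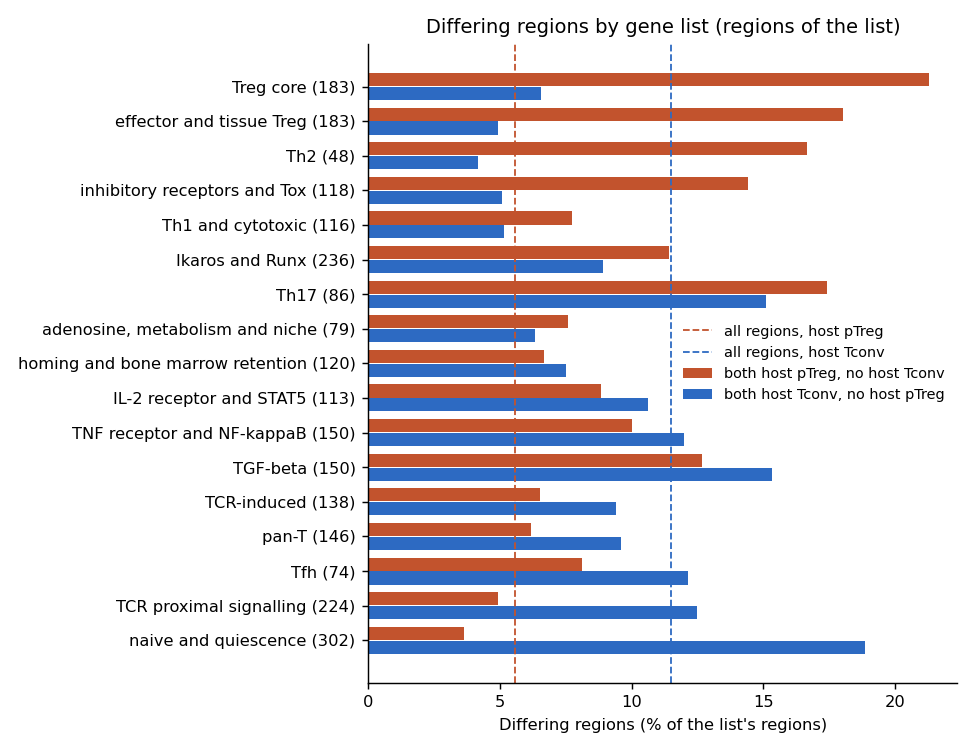
Percentage of the regions at each gene list (x axis) that were host pTreg regions (upper bar) or host Tconv regions (lower bar), for lists with at least 40 regions, with the number of regions in brackets. Dashed lines mark the same over all regions, 5.59% and 11.5%. Treg core and effector lists exceed the host pTreg line with 21.3% and 18.0%, and the naive list exceeds the host Tconv line with 18.9%.

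The 25772 regions with a peak in all 4 libraries lie outside both differing sets, and the base pairs that peaks cover there give a second measure. Peak width is not signal height, and it can follow the depth of a library. Library medians of covered width were 722 and 597 bp in host pTreg and 649 and 864 bp in host Tconv, so log2 widths were centred on the library median before limma was run, and changes are relative to it. At an adjusted p under 0.05, 2364 regions (9.17%) differed, of which 1125 (4.37%) were wider and 1239 (4.81%) narrower in host pTreg (limma, Benjamini-Hochberg adjustment over all 25772 regions). Without centring the median of all regions moved to -0.17 on the log2 scale and 12 regions passed, 3 wider and 9 narrower, so the calls rest on the centring. Of the 75 calls at the named genes, 1 passed without centring. Of the calls, 12.9% of the wider and 16.2% of the narrower regions were no more than 1 kb from a gene end, where 35.3% of all tested regions were.

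Regions of regulatory genes were wider in host pTreg. In the Treg core list 31 of 76 tested regions (40.8%) were wider and 0 narrower, with a median log2 change of 0.52 against 0.02 over all regions. The effector and tissue list had 22 wider and 1 narrower of 85. At Ikzf2 all 5 regions tested were wider. The Ikzf2 region chr1:69680183-69681547 was covered by 1365 and 1236 bp in host pTreg and by 310 and 813 bp in host Tconv, with no overlap between the groups (log2 change 1.56 ± 0.26 SE, limma adjusted p = 0.00126). Ctla4 had 5 wider of 6. Across the Ctla4 gene at chr1:60908473-60910248 the widths were 1776 and 1580 bp in host pTreg and 647 and 880 bp in host Tconv (log2 change 1.34 ± 0.18 SE, adjusted p = 0.000306). At Lrrc32 the only region in all 4 libraries, chr7:98488865-98490669, had 1434 and 1785 bp in host pTreg and 315 and 674 bp in host Tconv (log2 change 1.99 ± 0.25 SE, adjusted p = 0.000143). The Itgb8 region chr12:119237609-119239045 had 1379 and 1437 bp in host pTreg and 244 and 698 bp in host Tconv (log2 change 1.96 ± 0.28 SE, adjusted p = 0.00042). Nrp1 had 4 wider of 11 tested, Il2ra 3 of 6, and Tigit and Icos 2 each. Tnfrsf9 had 1 wider of 6, although its differing region was a host Tconv region. Lag3 had 1 narrower of 3, and Cxcr4 had 1 wider and 1 narrower of 6.

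Il10, which encodes a suppressive cytokine of effector regulatory T cells, was among the 10 wider regions of lowest adjusted p, with 5 of 5 tested regions wider. The region chr1:131021220-131022325 in Il10 was covered by 983 and 1090 bp in host pTreg and by 197 and 188 bp in host Tconv (log2 change 2.62 ± 0.24 SE, adjusted p = 1.48e-05). By peak presence Il10 had 1 host pTreg and 1 host Tconv region of 9, or 2 and 0 at equal list length. Il10 lies in the chromosome 1 stretch described below, where wider regions made up a larger share than in the rest of the genome. The lowest adjusted p values for wider regions were at Oacyl, where both host pTreg libraries had 1290 and 1334 bp and both host Tconv libraries 150 bp, the shortest peak in every list (adjusted p = 2.33e-06), and at Spcs2, Sh3rf1 and Vps54. Arhgap15, also at 150 bp in both host Tconv libraries, completed the 10 with Tmprss6, Zswim4 and 1 region each on chromosomes 4 and 14 with no gene within 50 kb, and these last 4 had log2 changes of 2.16 to 2.52.

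Regions of quiescence genes were narrower in host pTreg, 31 of 148 in the naive list with 4 wider and a median log2 change of -0.25. At Satb1 5 of 6 tested regions were narrower. The Satb1 region chr17:51878831-51881199 had 720 and 557 bp in host pTreg and 1877 and 2369 bp in host Tconv (log2 change -1.55 ± 0.18 SE, adjusted p = 1.00e-04). Tcf7, which had 1 differing region, had 3 narrower of 5. Its widest, chr11:52270303-52284692, was covered by 3490 and 1811 bp in host pTreg and by 12436 and 14390 bp in host Tconv (log2 change -2.22 ± 0.29 SE, adjusted p = 0.000232). The Lef1 region chr3:131214301-131216178 had 150 and 150 bp in host pTreg and 931 and 1878 bp in host Tconv (adjusted p = 4.87e-06). Both host pTreg values are at 150 bp, the shortest peak in every list, so no size of change is given. Ccr7 had 3 narrower regions of 6, although the single differing region at that gene was a host pTreg region. Bach2 had 4 narrower and 1 wider of 20, and Foxp1 3 narrower of 28.

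**Figure D5:**
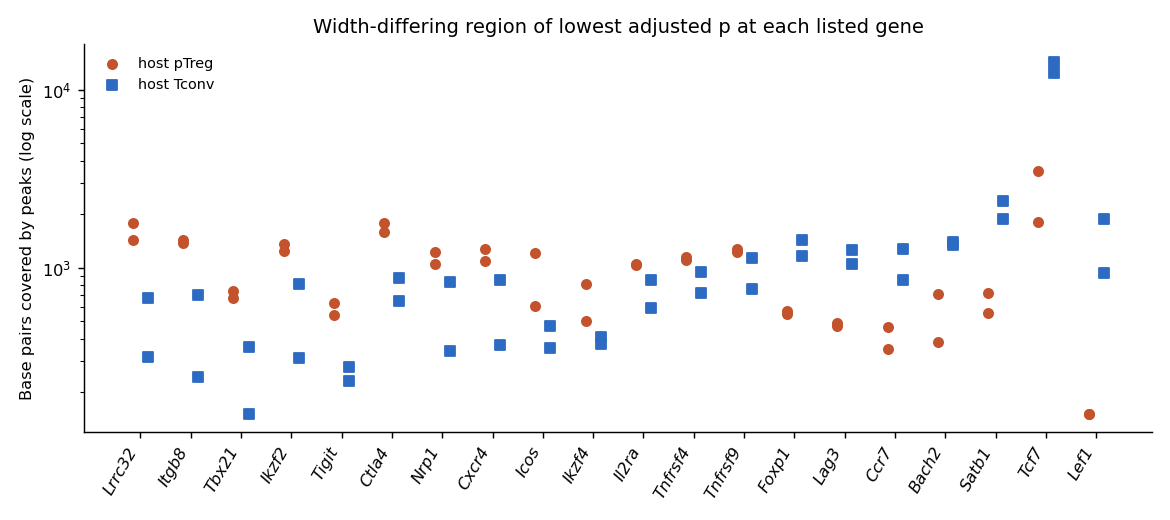
Base pairs covered by peaks (y axis, log scale) in the 2 host pTreg libraries (circles, left of each pair) and the 2 host Tconv libraries (squares, right) at the region of lowest adjusted p of each gene of the fixed list that had one past 0.05. At Lrrc32 host pTreg stand at 1434 and 1785 bp against 315 and 674 bp, and at Tcf7 at 3490 and 1811 bp against 12436 and 14390 bp.

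The lowest adjusted p among narrower regions was at Pde5a, the gene of a cGMP phosphodiesterase, with 202 and 150 bp in host pTreg and 2072 and 2284 bp in host Tconv (log2 change -3.45 ± 0.20 SE, adjusted p = 4.18e-07, with 1 host pTreg value at the shortest peak width). At Tgfbr3 4 of 5 regions were narrower. Presence and width come from the same peak lists, so the width calls there are not independent of the differing regions. The most marked, chr5:107078334-107080549, had 364 and 275 bp in host pTreg and 2057 and 2216 bp in host Tconv (log2 change -2.56 ± 0.20 SE, adjusted p = 2.64e-06). Plaur, Pgbd5, Lef1, Wwox, Timm8a2, Ptpn14 and Dhx40 were also among the 10 of lowest adjusted p. Proximal T cell receptor signalling genes had 2 wider and 15 narrower of 118, with 4 narrower regions each at Cd247 and Prkcq.

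Chromosome 1 near Ptprc, the gene of the CD45 alleles used in the sort, stood apart. Of 873 regions within 20 Mb of Ptprc (chr1:138062859-138175756), 84 (9.62%) were host pTreg regions and 99 (11.3%) host Tconv regions, against 5.52% and 11.5% in the rest of the genome. At equal list length the host pTreg share there was 13.7%, against 8.86% in the rest. Of 377 regions tested for covered width in the stretch, 9.28% were wider and 5.04% narrower in host pTreg. In the rest of the genome these shares were 4.29% and 4.80%. The stretch holds Lamc1, Cxcr4 and Il10. In the host tTreg comparison, where the sort used the same alleles, host tTreg regions made up 6.96% of the stretch and 3.86% of the rest. In the donor comparison, where both groups were sorted on 1 allele, donor Treg regions made up 4.84% and 2.43%. Whether the alleles play a part in the differences there was not tested. Without the stretch the counts were 2778 host pTreg and 5765 host Tconv regions.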

How the data were processed

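Accessible chromatin was measured by ATAC-seq, and the 12 deposited peak lists of the series were used. The build was mm10, and the tools HOMER 4.10, bedtools and Bowtie2 2.3.3, per the submitters' processing notes. Their roles and settings, any shift of reads for the transposase and the reads behind a list were not given in the sources used here. Every peak has the same score, 1000, in the lists the authors deposited, so the score was not used. Whether peaks were called per library is not stated, and the list names speak of an intersection that is not explained. Depth is unknown, so no counting interval is given. Groups and replicate numbers came from the titles. Titles number the host Tconv libraries 1 and 2, descriptions 2 and 3, and nothing ties equal numbers to 1 animal.

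Peaks sharing at least 1 bp were merged (Python 3.11.15, pandas 2.3.3). Coordinates are from 1. Equal list length means the 28394 widest peaks of each list. The narrowest peak kept differed between lists, and a narrower peak counted as absent. Genes came from a RefSeq table of GRCm38.p6, whose coordinates are those of mm10. Distances are to the closer gene end because the table has no strand; 91.5% of regions were assigned. No genome was used, so motifs were searched in listed promoter windows only, which cover 17492 of 21887 protein-coding genes. Covered width was tested with limma 3.58.1 in R 4.3.3 on log2 base pairs (median-centred, trended empirical Bayes, Benjamini-Hochberg at 0.05). The carriage test went through every split of the libraries in Python with NumPy 2.4.6. Region calling and limma were tested on simulated data. Gene lists have counts beside the background and no test.

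The comparison, the lists and the rules for named genes were chosen with earlier results of these data known. Named are the fixed list of 32 genes; the 10 genes leading each direction by net regions, if the sign holds at equal length; the 6 widest differing regions; and the 10 regions of lowest adjusted p for width. Other genes of the lists were named after their values were seen. Some genes that these rules name are not reported here. Alternatives changed list length, the overlap that joins peaks, the minimum width, the presence rule, gene assignment, centring, trend, chromosomes and the libraries used.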

Additional observations from a re-analysis of the deposited data

Results flagged for a closer look

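Tbx21, the Th1 factor gene, went one way in host pTreg and the other in the transferred cells. It had 2 host pTreg regions and 0 host Tconv regions, a net of 2, but 0 donor Treg and 3 donor Tconv regions, and the difference between the comparisons was not tested. In host tTreg against the same host Tconv libraries it had 0 and 0. Of the host pTreg regions at Tbx21, chr11:97103264-97103627 was covered by 276 and 357 bp in host pTreg and 277 and 287 bp in donor Tconv, with no peak in host Tconv or donor Treg. That at chr11:97103748-97104528 was covered by 781 and 634 bp in host pTreg and 318 and 326 bp in donor Tconv. The Tbx21 region chr11:97108720-97109463, in all 4 host libraries, had 744 and 678 bp in host pTreg and 150 and 360 bp in host Tconv (log2 change 1.80 ± 0.27 SE, limma adjusted p = 0.000583), where 150 bp is the shortest peak in every list.

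Peaks at the starts of Eif2s3y, Uty and Ddx3y on chromosome Y were present in 4 libraries each, both host pTreg and both host tTreg, and in none of the other 8. They were covered by 549 and 468 bp (Eif2s3y), 709 and 480 bp (Uty) and 995 and 946 bp (Ddx3y) in the host pTreg libraries, against no peak in either host Tconv library. At Xist on chromosome X, chrX:103480964-103482485 was covered by 710 and 841 bp in host pTreg and 1356 and 1503 bp in host Tconv. The labels give no sex. These values run with the run code and the group and cannot be told apart from them. On autosomes alone 2805 host pTreg and 5750 host Tconv regions were found.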

How the results depend on the processing

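Counts of host pTreg and host Tconv regions stayed within 1.5 times of 2862 and 5864 when peaks had to share 100 bp, when regions were merged over 12 libraries, when peaks had to cover 50% of a region, on autosomes and without the chromosome 1 stretch. At equal list length there were 3409 host Tconv regions and a host pTreg share of 48.9%. With peaks of at least 300 bp there were 1881 host pTreg regions, and with at least 500 bp 860 host pTreg and 1920 host Tconv regions, a share of 30.9%. Leaving out 1 library gave 3067 to 5150 host pTreg regions, 6197 to 12012 host Tconv regions and a share of 20.3% to 45.4%. The carriage difference was 119 points without iTreg (exact permutation p = 0.0667). As said above, this test takes libraries of 1 group as independent. Permuted within the replicate block, the difference was 93.2 points with an exact permutation p of 0.0625, the smallest that 16 splits allow. Leaving out 1 library gave 70.9 to 104 points. Without either donor Tconv library the exact permutation p was 0.143, the smallest that 7 splits allow. Width calls numbered 12 without centring, 1150 at equal length (459 wider), 792 with peaks of at least 300 bp, and 2322 without the trend. With the replicate block they numbered 2925, of which 2295 were among the 2364. Leaving out 1 library gave 2225 to 3340 calls, 38.1% to 56.5% of them wider.

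Net counts at Zbtb16 turned to 1 at equal length. At equal length the net also turned for the lists of IL-2 receptor and STAT5 (5), TNF receptor and NF-kappaB (4), TCR-induced (2), Tfh (1), homing (4) and NK (-3). With genes within 10 kb it turned for TNF receptor and NF-kappaB (1) and adenosine, metabolism and niche (-1), and with gene bodies only for TCR-induced (2) and homing (2). With peaks of at least 300 bp it turned for Th1 and cytotoxic (-9), Ikaros and Runx (-2) and NK (-5). Leaving out 1 library turned it in 13 cases, to 1 to 3 for IL-2 receptor and STAT5, TNF receptor and NF-kappaB, TCR-induced, Tfh, homing and B cell, and to -9 to -2 for Th1 and cytotoxic, Th17, adenosine, Ikaros and Runx and NK. The lowest and highest nets over the 4 libraries left out were -8 and 3, -14 and 1, -12 and 1, -3 and 1, -13 and 3, and -4 and 1 for the first 6 of these lists, and -6 and 11, -3 and 13, -6 and 8, -9 and 23, and -3 and 6 for the other 5. Over all alternatives the net of the Treg core list was 18 to 41, of the effector and tissue list 17 to 40, and of the naive list -67 to -33. No paired count of regions was possible because both libraries of a group must carry a region, which gives the same set.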

Other observations

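The genes given here were chosen after their values were seen, for their direction, and nothing is read from how many there are. Over all genes 9.5% had more host pTreg and 20.1% more host Tconv regions. In the list of effector and tissue Treg genes, which holds Klrg1 and Areg, 12 of 22 genes had more host pTreg regions, 2 more host Tconv regions and 8 equal numbers. Klrg1, a receptor of terminally differentiated cells, had 3 host pTreg and 0 host Tconv regions of 8, or 7 and 0 at equal list length. Its regions with a peak numbered 8 and 8 in host pTreg and 1 and 5 in host Tconv. Tnfrsf8 (CD30) had 4 and 0 of 17, or 8 and 0 at equal length. With all peaks, its regions with a peak numbered 17 and 14 in host pTreg and 10 and 11 in host Tconv. At equal length, peaks narrower than 270 bp in host Tconv replicate 1 and 387 bp in replicate 2 had been dropped. A count of 0 there does not show that host Tconv lacked a peak. Ahr had 4 and 0 of 6, with a peak at 6 and 6 regions in host pTreg and 1 and 2 in host Tconv. Areg, which encodes the repair factor amphiregulin, had 2 and 0 of 3. Tgif1, a corepressor of TGF-beta signalling, had 2 and 0 of 5, or 4 and 0 at equal length. Il21, a cytokine of follicular helper cells, had 0 and 4 of 9, with a peak at 3 and 1 regions in host pTreg and 8 and 8 in host Tconv. At Fosb, an AP-1 subunit gene, all 4 tested regions were wider in host pTreg (limma, adjusted p under 0.05), with a median log2 change of 1.31. Over all regions tested for width 4.37% were wider, and these calls rest on the centring. Of other AP-1 family genes, Fos (7 tested), Jun (2), Junb (1), Fosl2 (1), Batf (2) and Batf3 (1) had no region called in either direction.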
